A study of Homo sapiens with 6 samples.

Results

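The mitosis and spindle genes are 47 human genes chosen by name for their known parts in cell division, from the kinases and cyclins that start mitosis to the proteins of the kinetochore, the spindle and the cleavage furrow. They are 47 of the 27420 genes listed in the deposited expression table. Each was listed once, and all 47 were above 1 FPKM in both vehicle libraries. FPKM, fragments per kilobase of transcript scaled to the mapped fragments of the library, is a level relative to the other RNA of the same library. In a dividing cell most of these genes, though not all, are transcribed mainly in the G2 phase and in mitosis. Many of their RNAs and proteins are lost again as daughter cells form. Cyclin B and its kinase CDK1 start mitosis, Aurora and Polo kinases build the spindle, kinetochores tie chromosomes to microtubules, and the anaphase-promoting complex lets the chromosomes part. Ewing sarcoma is a fast-dividing tumor of bone and soft tissue of young people, and antimitotic drugs are among those used against it.

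RNA was sequenced from A673 and SKNMC, established cell lines of Ewing sarcoma. Cells of each line were kept for 6 h in the vehicle DMSO, in 50 nM THZ1 or in 200 nM THZ1. THZ1 is a covalent inhibitor of CDK7, a kinase of the general transcription machinery that also activates the cell cycle kinases. Each of the 6 conditions is 1 library, so there are no replicates, and no difference below could be set against a replicate error. Total FPKM of the listed genes under 50 nM and 200 nM THZ1 was 98.5% and 100.5% of the DMSO total for A673 and 98.9% and 97.8% for SKNMC. In a cell population, less RNA per cell and fewer cells in mitosis cannot be told apart.

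The labels were checked against marker genes. All 10 Ewing sarcoma markers were above 1 FPKM in all 6 libraries, and their summed level was 1781, 1596 and 1694 FPKM in A673 with DMSO, 50 nM and 200 nM and 1338, 1035 and 904.6 FPKM in SKNMC. Of 7 listed markers of other cell types, COL1A1, a collagen gene, was the most abundant in every library, at 9.04, 9.52 and 7.18 FPKM in A673 and 30.4, 33.6 and 41.5 FPKM in SKNMC. PTPRC, the blood cell marker CD45, was at or below 0.0291 FPKM in the A673 libraries and at 10.2, 7.90 and 13.1 FPKM in SKNMC. The summed level of the 7 was 9.12, 9.67 and 7.32 FPKM in A673 and 41.3, 42.1 and 55.5 FPKM in SKNMC, where it was highest at 200 nM; its part in the results was not tested. EPCAM, MYOD1, ALB, CDH1 and GFAP stayed below 1 FPKM throughout, with MYOD1 and ALB listed at 0 in all 3 A673 libraries and CDH1 listed at 0 in SKNMC with DMSO and 50 nM.

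Many promoters of this class share a short element called the cell cycle genes homology region and, upstream of it, CCAAT boxes bound by NF-Y. Both were looked for, on both strands, in the RefSeq promoter windows of GRCh38.p14, which hold 300 bases, the last 50 of them after the start. 39 of the 47 members matched, with 49 windows, all except WEE1, AURKA, BIRC5, BUB3, TTK, UBE2C, TPX2 and FOXM1. TTTGAA, the letters searched for the homology region, was in 31 of the 49 member windows (63.3%), against 15.2% of all 35116 windows and 10.4% of the 11862 windows of genes above 1 FPKM in both DMSO libraries. CCAAT was in 38 (77.6%), against 34.6% and 35.1%, and both were in 26 (53.1%), against 5.90% and 4.24%. Counted by gene, 28 of the 39 members held TTTGAA in at least 1 window, against 18.2% of all genes with a window and 13.5% of those active in both lines. For CCAAT 33 did, against 39.7% and 43.9%, and CENPE and KIF2C held neither. Of 42 TTTGAA matches, 29 began between base -60 and base 50 from the start, and the median CCAAT match began at base -79. Positions in the windows of other genes were not counted. In 1 member window, that of CDCA8, matches of the 2 elements overlapped. A match is a description of these letters in these windows and no evidence of binding.

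The promoters shown are those at the ends of the order of response. AURKA, CENPA and CDCA8 had the lowest mean log2 fold change over the 4 comparisons with DMSO, at -2.24, -1.81 and -1.69, and PTTG1, ECT2 and PRC1 the highest, at 0.01, -0.001 and -0.03. PLK1, at -1.03, was added after its window was seen, because it holds 1 match of each element. The windows lie at chr2:26785806-26786105 (plus strand), chr1:37692266-37692565 (plus), chr5:160421605-160421904 (plus, the first of 2 windows), chr3:172750476-172750775 (plus, the first of 2 windows), chr15:90994486-90994785 (minus) and chr16:23678639-23678938 (plus). Each runs 5′ to 3′ on the strand of its gene, with TTTGAA and CCAAT, or their reverse complements TTCAAA and ATTGG, in capitals.
CENPA: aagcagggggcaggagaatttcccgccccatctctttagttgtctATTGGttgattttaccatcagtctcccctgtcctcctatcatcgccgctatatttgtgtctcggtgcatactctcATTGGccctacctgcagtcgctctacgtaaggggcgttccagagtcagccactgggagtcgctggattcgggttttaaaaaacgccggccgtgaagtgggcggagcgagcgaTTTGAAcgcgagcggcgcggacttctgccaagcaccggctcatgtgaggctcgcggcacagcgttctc
CDCA8: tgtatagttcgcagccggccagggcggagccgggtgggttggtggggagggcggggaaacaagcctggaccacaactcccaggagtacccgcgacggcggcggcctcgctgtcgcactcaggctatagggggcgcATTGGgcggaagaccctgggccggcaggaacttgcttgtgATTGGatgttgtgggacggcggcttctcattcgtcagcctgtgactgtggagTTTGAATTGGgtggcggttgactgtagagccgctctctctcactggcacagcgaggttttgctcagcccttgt
PTTG1: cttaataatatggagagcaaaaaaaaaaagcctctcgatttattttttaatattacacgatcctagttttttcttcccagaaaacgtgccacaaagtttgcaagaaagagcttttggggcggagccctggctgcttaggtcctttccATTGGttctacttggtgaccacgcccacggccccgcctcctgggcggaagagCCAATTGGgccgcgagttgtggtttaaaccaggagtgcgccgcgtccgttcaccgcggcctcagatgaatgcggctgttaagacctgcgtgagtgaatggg
ECT2: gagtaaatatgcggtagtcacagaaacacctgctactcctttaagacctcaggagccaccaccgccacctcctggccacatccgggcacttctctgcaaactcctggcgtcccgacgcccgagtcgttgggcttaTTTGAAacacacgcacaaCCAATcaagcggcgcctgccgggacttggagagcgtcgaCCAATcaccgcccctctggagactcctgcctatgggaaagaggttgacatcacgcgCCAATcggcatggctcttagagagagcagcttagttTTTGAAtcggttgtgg
PRC1: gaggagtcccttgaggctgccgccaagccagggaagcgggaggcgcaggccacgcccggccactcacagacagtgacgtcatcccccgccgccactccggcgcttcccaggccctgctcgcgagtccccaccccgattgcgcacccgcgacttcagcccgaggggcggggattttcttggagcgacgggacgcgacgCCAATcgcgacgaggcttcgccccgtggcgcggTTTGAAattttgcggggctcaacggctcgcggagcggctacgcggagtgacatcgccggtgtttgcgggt
PLK1: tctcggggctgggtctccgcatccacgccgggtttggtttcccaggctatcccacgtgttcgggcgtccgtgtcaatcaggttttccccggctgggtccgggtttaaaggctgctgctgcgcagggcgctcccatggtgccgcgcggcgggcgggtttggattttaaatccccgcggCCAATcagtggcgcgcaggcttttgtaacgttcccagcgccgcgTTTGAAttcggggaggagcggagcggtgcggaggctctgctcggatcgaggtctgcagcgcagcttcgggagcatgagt
TTTGAA began at base -18 in CENPA, -23 in CDCA8, -20 in PRC1 and -29 in PLK1, at bases -115 and 35 in ECT2, and was not in the PTTG1 window shown. So genes at both ends of the order carried the same pair of elements. Over the 39 members with a window, the median log2 fold change at 200 nM in A673 was -0.83 for the 28 with TTTGAA and -1.32 for the 11 without, and in SKNMC -0.59 and -0.98. At 50 nM these medians were -0.65 and -0.96 in A673 and -0.60 and -0.62 in SKNMC. For the 33 members with CCAAT and the 6 without, the medians at 200 nM were -1.07 and -1.23 in A673 and -0.64 and -0.50 in SKNMC, and at 50 nM -0.68 and -0.48 and then -0.62 and -0.43. Members with TTTGAA were thus not the lower ones in these libraries, whereas those with CCAAT were lower except at 200 nM in A673, a contrast that rests on 6 genes.

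Levels with DMSO were read first. The median member was at 47.4 FPKM in A673 and 37.8 FPKM in SKNMC, above the medians of 14.1 and 13.5 FPKM of the genes above 1 FPKM in the same libraries, called active genes below. Members ran from 11.6 FPKM (KIF14) to 228 FPKM (CCNB1) in A673, and from 8.32 FPKM (SPC24) to 106 FPKM (PLK1) in SKNMC. Of the 47, 42 were higher in A673 than in SKNMC, against 46.9% of the 10574 genes active in both lines. The median ratio of A673 to SKNMC was 1.40 for members and 0.964 for all these genes. With both libraries divided by the 75th percentile of their active genes, 36 members against 36.7% of genes were higher in A673, and with division by the median ribosomal protein gene 45 against 72.1%. At least 2-fold higher in A673, in the values as reported, were CDK1, CCNB1, AURKB, BUB3, NDC80, KIF11, KIF18A and DLGAP5 (8 of 47, against 8.44%). The median member ratio was 1.24 under the 75th percentile scaling and 1.93 under the ribosomal protein scaling, so this list depends on the scaling. Only TOP2A, of the 47, was at least 2-fold higher in SKNMC, where 11.6% of genes were.

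Changes are given as log2 of (FPKM + 1) over (FPKM + 1) of the DMSO library of the same line, which makes changes look smaller for weakly expressed genes. A gene is called decreased when it was at least 2-fold lower on this scale. In A673, 11 of the 47 members were decreased at 50 nM (23.4%), against 15.9% of the 11077 active genes, and 25 at 200 nM (53.2%), against 25.3%. In SKNMC, 6 were decreased at 50 nM (12.8%), against 15.8% of the 11896 active genes, and 17 at 200 nM (36.2%), against 27.3%. With a pseudocount of 0.1 the A673 counts of 11 and 25 stood against 21.6% and 31.1%. The share of members was thus above that of active genes at both doses in A673, as it was under each scaling. In SKNMC it was above at 200 nM, but below under the 75th percentile scaling (6 of 47, against 13.4%). At 50 nM in SKNMC it was below, but above under the ribosomal protein scaling (21 of 47, against 27.98%), at a 1.5-fold threshold (21, against 33.5%) and with all listed genes as the background (6, against 6.84%). No member was increased at least 2-fold against DMSO, compared with 0.343% and 0.126% of active genes at 50 nM and 200 nM in A673 and 0.471% and 0.462% in SKNMC. Members lower than in DMSO by any amount numbered 39 at 50 nM and 46 at 200 nM in A673, against 70.1% and 70.4% of active genes. For SKNMC the numbers were 41 and 45, against 73.0% and 80.8%. Under the 75th percentile scaling they were 35 and 37 in A673, against 53.6% and 53.8%, and 28 and 25 in SKNMC, against 54.4% and 53.7%. The 47 together made up 0.624%, 0.451% and 0.343% of all FPKM in the A673 libraries, from DMSO to the higher dose, and 0.446%, 0.340% and 0.295% in those of SKNMC.

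Log2 fold changes are listed with 50 nM before 200 nM from here on. The member median was -0.65 and -1.07 in A673 against -0.38 and -0.63 in SKNMC. Over active genes it was -0.27 and -0.40 in A673 and -0.32 and -0.55 in SKNMC. The member median minus that of active genes was -0.38 and -0.68 in A673 and -0.06 and -0.08 in SKNMC, so the members lay below other genes in A673 and, by the median, close to them in SKNMC. Setting the 75th percentile of active genes equal between libraries moved the median of active genes by 0.22 and 0.32 in A673 and by 0.25 and 0.48 in SKNMC at 50 nM and 200 nM. Dividing by the median ribosomal protein gene moved it by -0.19, -0.29, -0.34 and -0.47 in the same order. Relative to active genes, the members stayed between -0.40 and -0.35 at the lower and between -0.72 and -0.66 at the higher dose in A673 under these scalings and a common sum. In SKNMC they stayed between -0.13 and -0.03 and between -0.13 and -0.02. Of the 188 member values, 61 changed sign under at least 1 scaling, all of them between -0.54 and 0.18 as reported, whereas no decrease of at least 2-fold did.

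**Figure D1:**
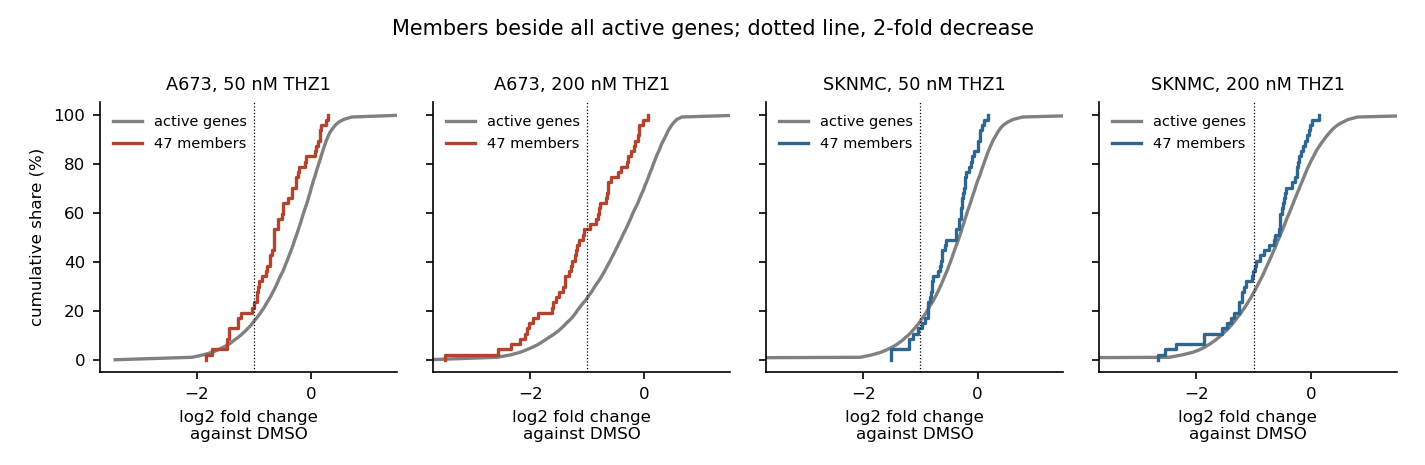
Cumulative share (%) of the 47 members (colored steps) and of all active genes (grey) by log2 fold change against DMSO, 1 panel per comparison. At the median the member curve lies left of the grey curve in A673, at -0.65 against -0.27 for 50 nM and -1.07 against -0.40 for 200 nM. In the low tail at 50 nM in A673 it does not, as 0 members and 1.37% of active genes were at least 4-fold lower. In SKNMC the curves are near each other at the median (-0.38 against -0.32 and -0.63 against -0.55), though not over their whole length.

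**Figure D2:**
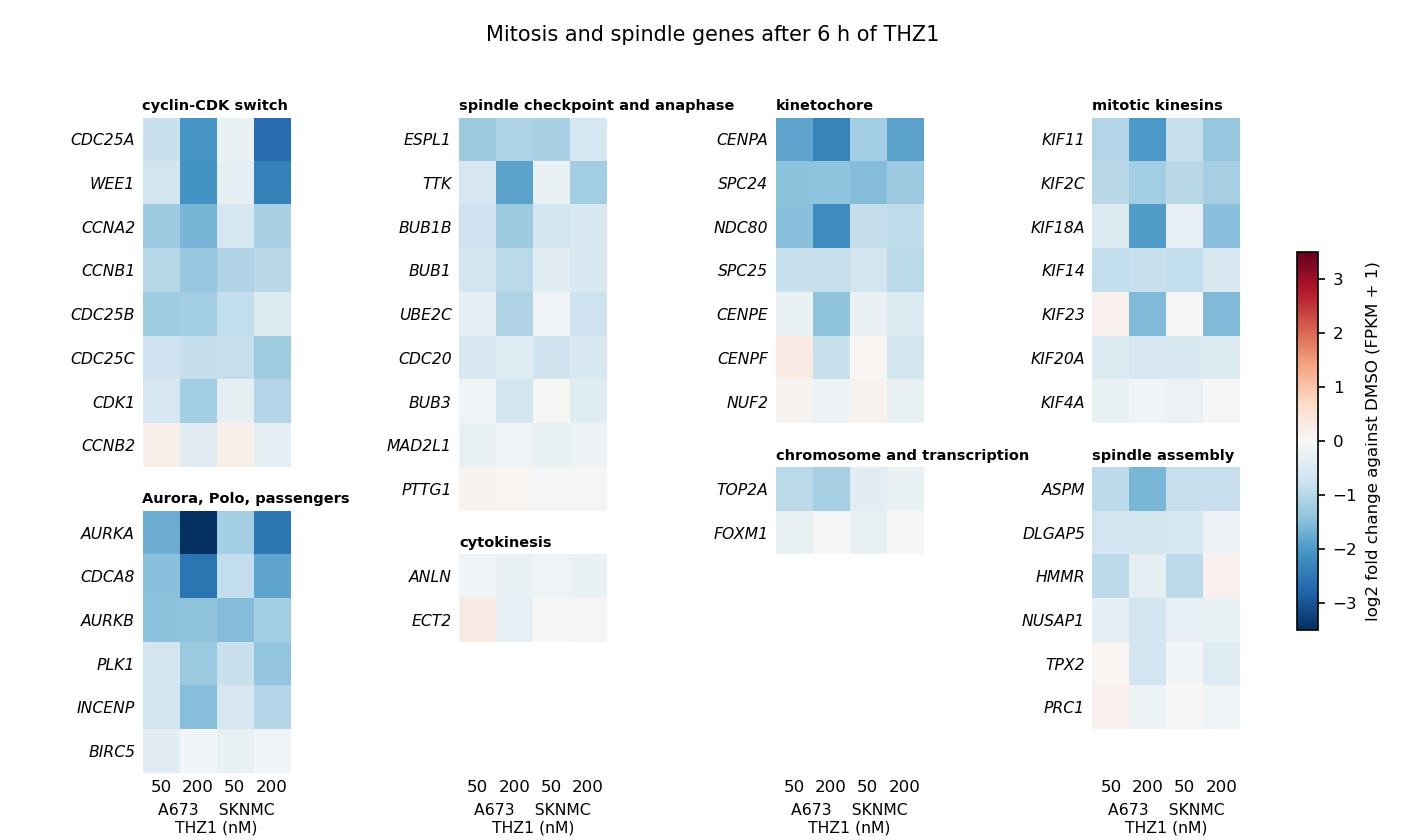
Log2 fold change against DMSO of each member (rows, ordered within role groups by their mean) in the 4 comparisons (columns, THZ1 dose in nM within each line). Blue is lower than DMSO, the darkest cell being AURKA in A673 at 200 nM (-3.48), and pale cells mark members with little change, such as PTTG1 and NUF2.

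The switch into mitosis is made by CDK1 with cyclins A and B, held back by the kinase WEE1 and released by the CDC25 phosphatases. Decreased members of this group of 8 numbered 3 and 6 in A673 (against 15.9% and 25.3% of active genes) and 1 and 5 in SKNMC (against 15.8% and 27.3%) at 50 nM and 200 nM. Under the 75th percentile scaling they were CCNA2 at 50 nM and CCNA2, CDC25A and WEE1 at 200 nM in A673 (against 11.0% and 17.3%). In SKNMC no member of the group was decreased at 50 nM under it, and CDC25A and WEE1 were at 200 nM (against 10.3% and 13.4%). The group median at 200 nM minus that of active genes was -0.87 in A673 (-0.93 to -0.83 over the scalings) and -0.52 in SKNMC (-0.62 to -0.45). CDK1, the kinase that drives mitosis, was at 171 FPKM in DMSO-treated A673 cells, 114 after 50 nM and 74.7 after 200 nM THZ1, and 78.98, 62.5 and 38.7 FPKM in SKNMC. It was highest with DMSO and lowest at 200 nM in both lines, with log2 fold changes of -0.58 and -1.18 in A673 against -0.33 and -1.01 in SKNMC. CCNB1, the cyclin B1 subunit that CDK1 needs to enter mitosis, was at 228, 113 and 91.1 FPKM in A673 and 99.6, 47.6 and 50.1 FPKM in SKNMC in the same order. At 50 nM it was at 49.6% of DMSO in A673 and 47.8% in SKNMC. At 200 nM it was lower again in A673 and no lower in SKNMC, with log2 fold changes of -1.004 and -1.32 in A673 against -1.05 and -0.98 in SKNMC. CCNA2, cyclin A2, which acts from S phase into early mitosis, was at 88.2, 35.7 and 28.02 FPKM in A673 and 56.5, 36.5 and 25.3 FPKM in SKNMC. The lines differed most at DMSO and were alike under THZ1, with log2 fold changes of -1.28 and -1.62 in A673 against -0.62 and -1.13 in SKNMC; CCNA2 overlaps EXOSC9 on the other strand, and strand use in the quantification is not given in the sources used here.

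The phosphatases and WEE1 were lower at 200 nM than at 50 nM in both lines, with CDC25B as the exception. CDC25A, which acts on CDKs from the start of S phase, was at 20.9 FPKM in DMSO-treated A673 cells, 11.7 after 50 nM and 4.27 after 200 nM THZ1, and 19.6, 16.6 and 2.22 FPKM in SKNMC. Its 200 nM libraries were the low ones, at 20.4% and 11.3% of DMSO, and its log2 fold changes were -0.78 and -2.05 in A673 against -0.23 and -2.67 in SKNMC. CDC25B, which starts CDK1 activation at the centrosome, was at 44.4, 18.3 and 18.6 FPKM in A673 and 54.8, 29.7 and 38.3 FPKM in SKNMC. Both A673 doses were equally low, whereas in SKNMC 200 nM lay above 50 nM, and the log2 fold changes were -1.23 and -1.21 in A673 against -0.86 and -0.51 in SKNMC. CDC25C, which completes CDK1 activation, was at 11.8, 6.75 and 6.10 FPKM in A673 and 8.84, 4.60 and 3.12 FPKM in SKNMC. These low levels stayed short of a 2-fold decrease except at 200 nM in SKNMC, with log2 fold changes of -0.72 and -0.85 in A673 against -0.81 and -1.26 in SKNMC, and the gene overlaps FAM53C on the other strand, which had a mean FPKM 189% of its own. WEE1, the kinase that keeps CDK1 inactive until DNA is replicated, was at 22.6, 14.04 and 4.55 FPKM in A673 and 32.5, 25.6 and 5.56 FPKM in SKNMC. As with CDC25A, the 200 nM libraries stood apart, at 20.1% and 17.1% of DMSO, and the log2 fold changes were -0.65 and -2.09 in A673 against -0.33 and -2.35 in SKNMC. So an activator and the inhibitor of CDK1 were among the 3 members decreased 4-fold or more at the higher dose in both lines, the third being AURKA (3 of 47, against 2.42% of genes active in both), of which AURKA alone passed under the 75th percentile scaling. By line, 7 members reached a 4-fold decrease with 200 nM in A673, against 4.7%, and 3 did in SKNMC, against 3.53%. Under the 75th percentile scaling 3 did in A673 (against 2.59%) and 2 in SKNMC (against 1.28%), and with a pseudocount of 0.1 the 3 in SKNMC stood against 9.52%. CCNB2, cyclin B2, was between 55.2 and 82.7 FPKM in A673 and between 44.1 and 62.7 FPKM in SKNMC, highest at 50 nM in both, and was decreased in no comparison.

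**Figure D3:**
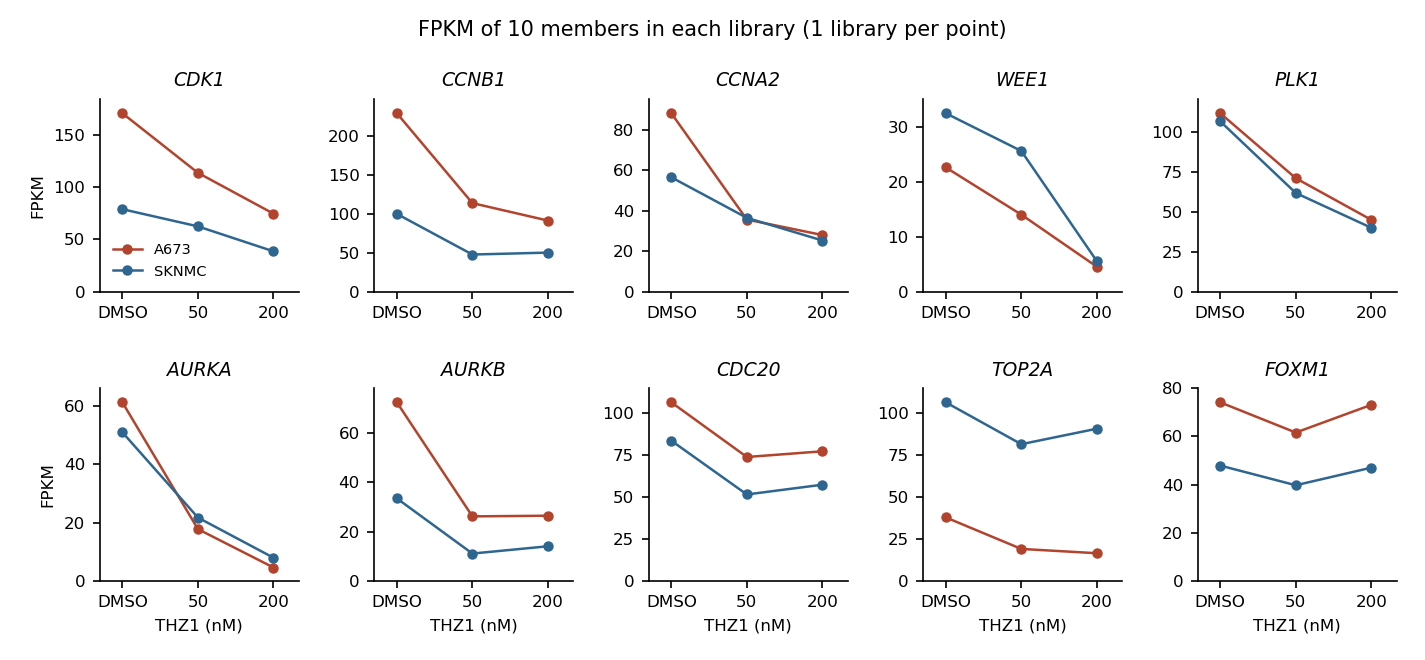
FPKM (vertical axes, from 0) of 10 members in each library, by THZ1 dose in nM (DMSO, 50, 200), A673 in red and SKNMC in blue, 1 library per point. AURKA and WEE1 end at 7.92 FPKM or less at 200 nM in both lines, AURKB is already low at 50 nM, and FOXM1 at 200 nM is near its DMSO level.

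The Aurora and Polo kinases and the chromosomal passenger complex order chromosome condensation, spindle assembly and the correction of wrong attachments. Decreased members of this group of 6 numbered 3 and 5 in A673 (against 15.9% and 25.3% of active genes) and 2 and 5 in SKNMC (against 15.8% and 27.3%), and the group median at 200 nM minus that of active genes was -1.06 in A673 (-1.11 to -1.03 over the scalings) and -0.75 in SKNMC (-0.85 to -0.68), the lowest of the 8 role groups in both lines under each scaling. Under the 75th percentile scaling the decreased members in SKNMC were AURKB at 50 nM (against 10.3%) and AURKA and CDCA8 at 200 nM (against 13.4%). In A673 only the decrease of PLK1 at 200 nM was lost under it. AURKA, the Aurora kinase of centrosomes and spindle poles, was at 61.2 FPKM in DMSO-treated A673 cells, 17.7 after 50 nM and 4.56 after 200 nM THZ1, and 50.9, 21.7 and 7.92 FPKM in SKNMC. Its level was lower at each higher dose in both lines, and 200 nM left 7.45% of the DMSO level in A673 and 15.5% in SKNMC. With log2 fold changes of -1.73 and -3.48 in A673 against -1.19 and -2.54 in SKNMC, it had the largest decrease of the 47 in A673 at 200 nM and by the mean of the 4 comparisons. PLK1, the Polo kinase that acts from centrosome maturation to cytokinesis, was at 111, 70.9 and 44.9 FPKM in A673 and 106, 61.7 and 39.9 FPKM in SKNMC. Its levels were alike in the lines at each dose, and its log2 fold changes were -0.65 and -1.29 in A673 against -0.78 and -1.39 in SKNMC.

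Of the passenger complex, AURKB is the kinase, INCENP the scaffold, and CDCA8 (borealin) and BIRC5 (survivin) the subunits that place it on centromeres. AURKB was at 72.4 FPKM in DMSO-treated A673 cells, 26.2 after 50 nM and 26.4 after 200 nM THZ1, and 33.4, 11.1 and 14.02 FPKM in SKNMC. It reached its low level at 50 nM and was no lower at 200 nM in either line, with log2 fold changes of -1.44 and -1.42 in A673 against -1.51 and -1.20 in SKNMC. INCENP was at 47.2, 29.7 and 16.1 FPKM in A673 and 46.4, 30.8 and 22.3 FPKM in SKNMC. Its levels were stepwise lower in both lines, and its log2 fold changes were -0.65 and -1.49 in A673 against -0.58 and -1.03 in SKNMC. CDCA8 was at 36.4, 12.5 and 5.33 FPKM in A673 and 31.9, 17.1 and 8.08 FPKM in SKNMC. Its 200 nM libraries were the lowest, at 14.6% and 25.3% of DMSO, with log2 fold changes of -1.47 and -2.56 in A673 against -0.86 and -1.86 in SKNMC. BIRC5 stayed between 63.4 and 84.3 FPKM in A673 and between 54.3 and 65.7 FPKM in SKNMC, lowest at 50 nM in both, so the RNAs of 1 complex changed to unequal extents in these libraries.

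The spindle checkpoint holds back the anaphase-promoting complex until all kinetochores are attached, and separase then cuts the cohesin between sister chromatids. Decreased members of this group of 9 numbered 1 and 4 in A673 (against 15.9% and 25.3% of active genes) and 1 and 1 in SKNMC (against 15.8% and 27.3%), below the share of active genes except at 200 nM in A673. Under the 75th percentile scaling only ESPL1 at 50 nM and TTK at 200 nM in A673 were decreased (against 11.0% and 17.3%). The share at 200 nM in A673 was then below that of active genes, and no member of the group was decreased in SKNMC. The group median at 200 nM minus that of active genes was -0.55 in A673 (-0.60 to -0.51 over the scalings) and 0.01 in SKNMC (-0.10 to 0.09), so that in SKNMC its sign depended on the scaling. TTK, the kinase also called MPS1 that starts checkpoint signalling, was at 35.5 FPKM in DMSO-treated A673 cells, 23.3 after 50 nM and 9.03 after 200 nM THZ1, and 27.2, 23.1 and 11.2 FPKM in SKNMC. The 200 nM libraries were lowest, and its log2 fold changes were -0.59 and -1.86 in A673 against -0.23 and -1.21 in SKNMC. BUB1B, the checkpoint protein BUBR1 that binds CDC20, was at 69.02, 41.2 and 28.3 FPKM in A673 and 43.7, 27.6 and 29.8 FPKM in SKNMC. It was decreased at 200 nM in A673 and not in SKNMC, where 50 nM and 200 nM were alike, with log2 fold changes of -0.73 and -1.26 in A673 against -0.64 and -0.54 in SKNMC. ESPL1, separase, was at 20.6, 7.89 and 9.29 FPKM in A673 and 13.6, 5.70 and 8.47 FPKM in SKNMC. In both lines 50 nM was the lowest library, and the log2 fold changes were -1.28 and -1.07 in A673 against -1.13 and -0.63 in SKNMC. UBE2C, a ubiquitin-conjugating enzyme of the anaphase-promoting complex, was at 126, 99.4 and 59.9 FPKM in A673 and 89.7, 82.3 and 53.6 FPKM in SKNMC. It was highest with DMSO and lowest at 200 nM in both lines, with log2 fold changes of -0.34 and -1.06 in A673 against -0.12 and -0.73 in SKNMC. CDC20, the activator of the complex that the checkpoint restrains, was at 106, 73.8 and 77.2 FPKM in A673 and 83.5, 51.5 and 57.3 FPKM in SKNMC. Both doses lay below DMSO and close to each other in each line, and its log2 fold changes of -0.52 and -0.46 in A673 against -0.69 and -0.54 in SKNMC stayed short of 2-fold.

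The other 4 checkpoint and anaphase members were decreased in no comparison. BUB1, a kinase of the kinetochore, ranged from 20.5 to 40.3 FPKM in A673 and from 18.5 to 27.2 FPKM in SKNMC, lowest at 200 nM. BUB3, its WD40 partner, ranged from 93.2 to 146 FPKM in A673 and from 49.02 to 68.1 FPKM in SKNMC. MAD2L1, the MAD2 protein that inhibits CDC20, and PTTG1, the securin that inhibits separase, showed little change. MAD2L1 ranged from 82.8 to 99.6 FPKM in A673 and from 76.1 to 91.8 FPKM in SKNMC. PTTG1 was at 83.97, 90.6 and 87.9 FPKM in A673 and 73.8, 70.5 and 70.6 FPKM in SKNMC, the member with the highest mean log2 fold change. Separase RNA was thus decreased at 50 nM in both lines while that of its inhibitor securin was between 95.5% and 108% of DMSO.

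Kinetochores are built on CENPA, the histone H3 variant that marks centromeres, and reach microtubules through the NDC80 complex of NDC80, NUF2, SPC24 and SPC25. Decreased members of this group of 7 numbered 3 and 4 in A673 (against 15.9% and 25.3% of active genes) and 2 and 2 in SKNMC (against 15.8% and 27.3%), and the group median at 200 nM minus that of active genes was -1.001 in A673 (-1.01 to -0.999 over the scalings) and -0.35 in SKNMC (-0.41 to -0.30). Under the 75th percentile scaling the A673 decreases stayed past 2-fold. In SKNMC only SPC24 at 50 nM (against 10.3%) and CENPA at 200 nM (against 13.4%) did. CENPA was at 35.7 FPKM in DMSO-treated A673 cells, 9.28 after 50 nM and 6.27 after 200 nM THZ1, and 27.2, 11.2 and 6.76 FPKM in SKNMC. Both doses were far below DMSO and 200 nM was the lowest, with log2 fold changes of -1.84 and -2.34 in A673 against -1.21 and -1.86 in SKNMC. The gene overlaps SLC35F6 on the same strand, which had a mean FPKM 34.5% of that of CENPA. CENPE, a kinesin that moves chromosomes to the spindle equator, was at 16.4, 13.9 and 5.60 FPKM in A673 and 11.1, 9.31 and 7.72 FPKM in SKNMC. Only its A673 library at 200 nM was decreased, with log2 fold changes of -0.22 and -1.40 in A673 against -0.23 and -0.47 in SKNMC. CENPF, a large protein of the outer kinetochore, ranged from 15.7 to 33.95 FPKM in A673 and from 18.2 to 30.3 FPKM in SKNMC, highest at 50 nM and lowest at 200 nM in both.

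The 4 subunits of the NDC80 complex did not change alike. NDC80 itself was at 37.96 FPKM in DMSO-treated A673 cells, 13.05 after 50 nM and 7.61 after 200 nM THZ1, and 17.9, 9.62 and 9.17 FPKM in SKNMC. A673 started higher and ended lower than SKNMC, with log2 fold changes of -1.47 and -2.18 in A673 against -0.83 and -0.89 in SKNMC. SPC24 was at 16.2, 5.33 and 5.53 FPKM in A673 and 8.32, 2.28 and 2.89 FPKM in SKNMC. The level was low at both doses in both lines, with log2 fold changes of -1.44 and -1.40 in A673 against -1.51 and -1.26 in SKNMC. SPC25 ranged from 20.3 to 36.4 FPKM in A673 and from 11.5 to 23.1 FPKM in SKNMC, its lowest log2 fold change being -0.95 in SKNMC at 200 nM. NUF2, the partner of NDC80 in the same rod, ranged from 39.96 to 48.2 FPKM in A673 and from 22.6 to 29.8 FPKM in SKNMC. At 200 nM in A673 the partners NDC80 and NUF2 were at 20.1% and 88.2% of DMSO.

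Mitotic kinesins are motors that push spindle poles apart, trim microtubules or work at the central spindle. Decreased members of this group of 7 numbered 1 and 4 in A673 (against 15.9% and 25.3% of active genes) and 0 and 4 in SKNMC (against 15.8% and 27.3%), and the group median at 200 nM minus that of active genes was -0.81 in A673 (-0.86 to -0.77 over the scalings) and -0.62 in SKNMC (-0.72 to -0.55). Under the 75th percentile scaling KIF23 alone was decreased in SKNMC at 200 nM (against 13.4%). In A673 KIF11, KIF18A and KIF23 were at 200 nM (against 17.3%), and no kinesin was at 50 nM. KIF11, the motor also called Eg5 that separates the poles, was at 43.6 FPKM in DMSO-treated A673 cells, 20.7 after 50 nM and 9.99 after 200 nM THZ1, and 20.5, 11.4 and 7.51 FPKM in SKNMC. Its levels were stepwise lower in both lines, with log2 fold changes of -1.04 and -2.02 in A673 against -0.80 and -1.34 in SKNMC. KIF18A, which damps chromosome movement at the equator, was at 37.1, 25.96 and 8.89 FPKM in A673 and 15.5, 12.6 and 5.02 FPKM in SKNMC. Only the 200 nM libraries were decreased, with log2 fold changes of -0.50 and -1.94 in A673 against -0.29 and -1.46 in SKNMC. KIF23, the MKLP1 motor of the central spindle, was at 52.99, 59.2 and 17.5 FPKM in A673 and 37.8, 37.8 and 12.2 FPKM in SKNMC. At 50 nM it was above DMSO in A673 and level with it in SKNMC, and the 200 nM libraries were at 33.1% and 32.2%, which makes its 200 nM log2 fold changes -1.54 in A673 and -1.56 in SKNMC. KIF2C, the MCAK protein that takes microtubules apart at centromeres, was at 50.6, 25.5 and 21.4 FPKM in A673 and 43.7, 21.9 and 18.9 FPKM in SKNMC. It was lower with 50 nM than with DMSO and slightly lower again at 200 nM, with log2 fold changes of -0.96 and -1.20 in A673 against -0.97 and -1.17 in SKNMC.

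KIF14, KIF20A and KIF4A were decreased in no comparison. KIF14, a motor of the midbody, ranged from 5.95 to 11.6 FPKM in A673 and from 5.54 to 10.9 FPKM in SKNMC, lowest at 50 nM. KIF20A, the MKLP2 motor that carries the passenger complex to the midzone, ranged from 34.8 to 52.7 FPKM in A673 and from 18.6 to 27.5 FPKM in SKNMC. KIF4A, a chromosome-bound kinesin, ranged from 18.5 to 21.8 FPKM in A673 and from 19.4 to 22.4 FPKM in SKNMC. Overlap on the other strand with a gene of similar level makes KIF20A (CDC23 and BRD8) and KIF4A (PDZD11) less certain.

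The spindle assembly factors bind and bundle microtubules. Decreased members of this group of 6 numbered 0 and 1 in A673 (against 15.9% and 25.3% of active genes) and 0 and 0 in SKNMC (against 15.8% and 27.3%). The group median at 200 nM minus that of active genes was -0.25 in A673 (-0.31 to -0.21 over the scalings) and 0.33 in SKNMC (0.22 to 0.41), so it lay below active genes in A673 and above them in SKNMC. ASPM, which focuses spindle poles, was at 20.7 FPKM in DMSO-treated A673 cells, 10.4 after 50 nM and 6.20 after 200 nM THZ1, and 16.8, 9.23 and 9.13 FPKM in SKNMC. In A673 its levels were stepwise lower and in SKNMC both doses were alike, with log2 fold changes of -0.93 and -1.59 in A673 against -0.80 and -0.82 in SKNMC. TPX2, the activator of AURKA on the spindle, ranged from 45.2 to 75.1 FPKM in A673 and from 51.4 to 70.5 FPKM in SKNMC. At 200 nM in A673 it was at 62.6% of DMSO, where its partner AURKA was at 7.45%. NUSAP1, a microtubule bundler, ranged from 48.2 to 76.1 FPKM in A673 and from 42.3 to 51.7 FPKM in SKNMC. DLGAP5, the HURP protein of kinetochore fibers, ranged from 33.6 to 54.5 FPKM in A673 and from 17.1 to 26.9 FPKM in SKNMC. HMMR, a hyaluronan receptor that also binds spindle microtubules, ranged from 10.6 to 20.7 FPKM in A673 and from 5.81 to 13.2 FPKM in SKNMC. Its lowest library was 50 nM in both lines, and in SKNMC its highest was 200 nM. PRC1, the bundler of the central spindle, ranged from 99.5 to 125 FPKM in A673 and from 68.6 to 77.7 FPKM in SKNMC, highest at 50 nM in both.

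Of the cytokinesis genes, ANLN encodes anillin, the scaffold of the contractile ring, and ECT2 the exchange factor that activates RhoA at the cleavage furrow. ANLN ranged from 49.1 to 58.2 FPKM in A673 and from 32.4 to 38.3 FPKM in SKNMC. ECT2 ranged from 38.7 to 56.6 FPKM in A673 and from 41.2 to 42.1 FPKM in SKNMC. Neither was decreased in any comparison, and their median at 200 nM minus that of active genes was 0.13 in A673 (0.07 to 0.18 over the scalings) and 0.45 in SKNMC (0.33 to 0.52).

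TOP2A, the topoisomerase that untangles sister chromatids, was at 37.7 FPKM in DMSO-treated A673 cells, 18.96 after 50 nM and 16.4 after 200 nM THZ1, and 106, 81.3 and 90.5 FPKM in SKNMC. Its level in SKNMC was above that in A673 in every condition, and its log2 fold changes were -0.96 and -1.15 in A673 against -0.38 and -0.23 in SKNMC, so a decrease of at least 2-fold was seen at 200 nM in A673 alone. FOXM1, the transcription factor that drives many genes of this list in G2, was at 74.2, 61.6 and 73.1 FPKM in A673 and 47.9, 39.7 and 47.03 FPKM in SKNMC. It was somewhat lower at 50 nM and near its DMSO level at 200 nM in both lines, at 98.6% and 98.2%, with log2 fold changes of -0.26 and -0.02 in A673 against -0.26 and -0.03 in SKNMC. The median of these 2 genes at 200 nM minus that of active genes was -0.19 in A673 (-0.24 to -0.15 over the scalings) and 0.42 in SKNMC (0.30 to 0.50). FOXM1 overlaps RHNO1 and ITFG2 on the other strand, with mean FPKM 31.1% and 19.0% of its own.

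Across the lines, which do not share a control, 6 members were decreased at 50 nM in both, namely CCNB1, AURKA, AURKB, ESPL1, CENPA and SPC24, against 11.4% of genes active in both. At 200 nM, 16 were decreased in both, against 20.4%. A further 9 were decreased at 200 nM in A673 alone, namely CCNB1, CDC25B, BUB1B, UBE2C, ESPL1, CENPE, NDC80, ASPM and TOP2A, against 5.22% of genes active in both, and CDC25C in SKNMC alone, against 8.23%. The 5 members decreased at 50 nM in A673 alone were CCNA2, CDC25B, CDCA8, NDC80 and KIF11, against 4.69%, and none was decreased at 50 nM in SKNMC alone, against 4.7%. Under the 75th percentile scaling only 2 members at 50 nM and 6 at 200 nM were decreased in SKNMC (against 10.3% and 13.4% of active genes). At most that many could then be shared by the lines. CCNB1 in SKNMC at 200 nM was just short of 2-fold, at -0.98, and its 50 nM value in A673 just past it, at -1.004. The log2 fold change was lower in A673 than in SKNMC for 27 of the 47 members at 50 nM, against 46.6% of genes active in both, and for 35 at 200 nM, against 38.1%. With division by the 75th percentile of active genes these counts were 33 against 51.6% and 44 against 55.2%, and with division by the median ribosomal protein gene 16 against 27.3% and 25 against 23.0%. At 200 nM the members thus lay further toward a larger decrease in A673 than other genes did under each of these scalings. Over the 47 members, whose levels depend on each other, the log2 fold changes of the lines had a Spearman correlation that was 0.92 at 50 nM and 0.88 at 200 nM, against 0.84 and 0.82 over the genes active in both.

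**Figure D4:**
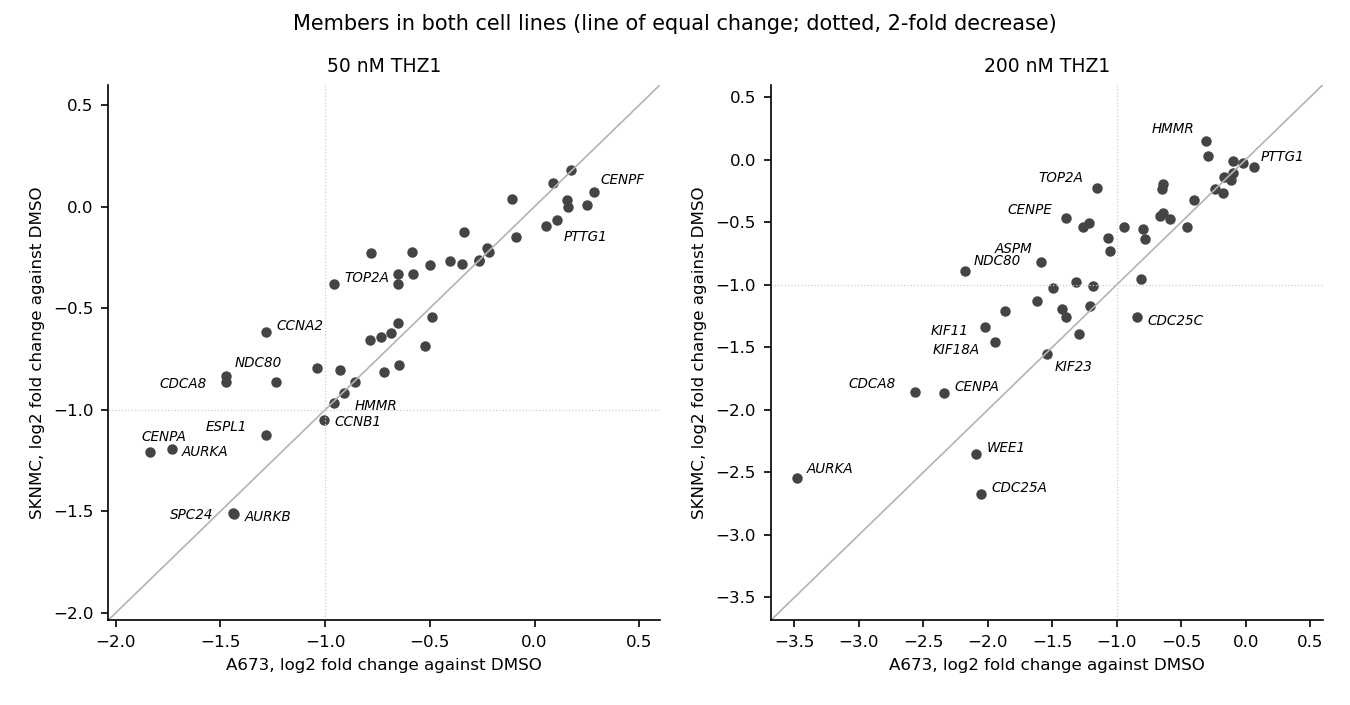
Log2 fold change against DMSO in SKNMC (vertical) against A673 (horizontal) for the 47 members at 50 nM and 200 nM THZ1, 1 point per gene, with a line of equal change and dotted lines at a 2-fold decrease. At 200 nM 35 points lie above the line of equal change, NDC80 (-2.18 in A673, -0.89 in SKNMC) and AURKA (-3.48 and -2.54) among them, and CDC25A (-2.05 and -2.67) lies below it.

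The doses were also set against each other. This comparison shares its libraries with those against DMSO and so is no separate evidence. The median member log2 fold change of 200 nM against 50 nM was -0.32 in A673, where active genes had -0.02, and -0.18 in SKNMC, where they had -0.14 and where the 75th percentile scaling turned the member median to 0.10. In A673, 9 members were at least 2-fold lower at 200 nM than at 50 nM, against 7.44% of active genes, and in SKNMC 5, against 8.39%. Those 5, CDC25A, WEE1, AURKA, KIF18A and KIF23, were the same in both lines (5 of 47, against 5.22% of genes active in both), and CDCA8, TTK, CENPE and CENPF were further ones in A673. No member was at least 2-fold higher at 200 nM in A673, against 0.117%, and 1 was in SKNMC, against 0.37%. That member was HMMR, at 1.06 in SKNMC and 0.60 in A673, and it was not called under the ribosomal protein scaling. Members lower at 200 nM than at 50 nM by any amount numbered 35 in A673, against 51.7% of active genes, and 28 in SKNMC, against 62.0%. The 28 were lower in A673 too, against 45.7% of genes active in both, and 12 members were higher at 200 nM in both lines, against 30.0%, among them AURKB, SPC24, ESPL1, CDC20, HMMR and FOXM1. So, in the values as reported, members differed in dose pattern. Some were no lower at 200 nM than at 50 nM in either line (AURKB, SPC24). Others reached their low level at 200 nM (KIF23, CDC25A, WEE1, KIF18A). Under the ribosomal protein scaling 41 members in A673 and 38 in SKNMC were lower at 200 nM than at 50 nM, against 62.4% and 75.9% of active genes. Against DMSO, AURKB in A673 was then at -1.66 and -1.76 and SPC24 at -1.63 and -1.69, both slightly lower at 200 nM.

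The members lie on 18 chromosomes and span 4250 bp (CDC20) to 130805 bp (KIF4A) in the table's hg19 coordinates, with a median of 29591 bp, against 31690 bp for genes active in both lines. Across the 47 members the Spearman correlation of the mean log2 fold change over the 4 comparisons was 0.12 with gene span and 0.29 with the mean DMSO level, against 0.09 and 0.22 over the 10574 genes active in both lines. These describe the genes of these libraries. Members with higher levels tended to change slightly less, about as other genes did.

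Around the members, 6 wider lists of the same machinery and 1 list of S-phase genes were read on the same scale, each at 50 nM and 200 nM. Among other G2 and mitosis genes, 8 and 15 of 29 active genes in A673 (against 15.9% and 25.3% over all) and 10 and 14 of 29 in SKNMC (against 15.8% and 27.3%) were decreased, and the list median at 200 nM minus that of active genes was -0.62 in A673 and -0.39 in SKNMC. The lowest was CCNF, cyclin F, at 18.8, 2.52 and 1.29 FPKM in A673 and 19.7, 2.87 and 1.997 FPKM in SKNMC, followed by the kinesin KIF18B and the spindle protein PSRC1 with mean log2 fold changes of -1.87 and -1.83, while CKS1B and CIT were highest at 0.03 and -0.06. Of subunits and regulators of the anaphase-promoting complex, 0 and 4 of 17 active genes in A673 (against 15.9% and 25.3% over all) and 0 and 3 of 17 in SKNMC (against 15.8% and 27.3%) were decreased, a smaller share than of all active genes, with a difference from active genes of -0.05 in A673 and -0.06 in SKNMC that in SKNMC changed sign between scalings. FBXO5, the EMI1 inhibitor of the complex, was at 37.9, 23.1 and 3.27 FPKM in A673 and 35.2, 20.6 and 3.10 FPKM in SKNMC, low at 200 nM alone, and FZR1, the CDH1 activator, and ANAPC10 followed with means of -1.35 and -1.12, while ANAPC5 and ANAPC15 had 0.31 and 0.25. Of condensin and cohesin genes, 3 and 10 of 22 active genes in A673 (against 15.9% and 25.3% over all) and 3 and 7 of 22 in SKNMC (against 15.8% and 27.3%) were decreased, with differences of -0.45 in A673 and 0.04 in SKNMC, the latter again changing sign between scalings. SGOL1, shugoshin, which guards centromeric cohesin, was at 11.4, 2.48 and 2.06 FPKM in A673 and 8.14, 1.64 and 1.63 FPKM in SKNMC, and the cohesin loader MAU2 and releaser WAPAL had means of -1.70 and -1.37, with NCAPH2 and NCAPG2 of condensin II highest at 0.05 and 0.04.

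Of the constitutive centromere and Mis12 and KNL1 complexes, 4 and 8 of 24 active genes in A673 (against 15.9% and 25.3% over all) and 5 and 8 of 24 in SKNMC (against 15.8% and 27.3%) were decreased, with differences of -0.07 in A673 and 0.21 in SKNMC. MIS12 was at 22.7, 4.56 and 3.96 FPKM in A673 and 14.4, 4.29 and 2.53 FPKM in SKNMC and its partner DSN1 and CENPL had means of -1.81 and -1.49, while CENPW and CENPC were highest at 0.07 and 0.06. Of centrosome and centriole genes, 3 and 7 of 18 active genes in A673 (against 15.9% and 25.3% over all) and 3 and 3 of 18 in SKNMC (against 15.8% and 27.3%) were decreased, with differences of -0.41 in A673 and -0.04 in SKNMC. PLK4, the kinase that starts centriole copying, was at 27.5, 6.62 and 3.49 FPKM in A673 and 17.7, 7.99 and 4.67 FPKM in SKNMC and its partners in that step SASS6 and STIL had means of -1.24 and -1.19, with CETN2 and ODF2 highest at 0.26 and -0.002. A list of regulators tied to the promoter elements above held genes of the MuvB complex, B-MYB and NF-Y, and also RBL1, RBL2 and TFDP1. In it, 3 and 6 of 12 active genes in A673 (against 15.9% and 25.3% over all) and 2 and 5 of 12 in SKNMC (against 15.8% and 27.3%) were decreased. The differences were -0.63 in A673 and -0.24 in SKNMC. LIN9 of MuvB was at 13.8, 6.14 and 2.30 FPKM in A673 and 14.02, 5.52 and 3.18 FPKM in SKNMC and LIN37 and LIN54 had means of -1.49 and -1.22, while MYBL2, which encodes B-MYB, and TFDP1 were highest at -0.10 and 0.11. Of 47 S-phase genes, 10 and 16 of 47 active genes in A673 (against 15.9% and 25.3% over all) and 9 and 18 of 47 in SKNMC (against 15.8% and 27.3%) were decreased. Their difference from active genes at 200 nM was 0.22 in A673 and -0.15 in SKNMC, where the 47 mitosis and spindle genes had -0.68 and -0.08, so that the list medians lay far apart in A673 and close together in SKNMC, although the share of decreased S-phase genes was above that of active genes in both lines. The lowest S-phase genes were GINS1, POLD3 and ORC5, with means of -2.23, -1.62 and -1.58, and the highest TK1 and POLE, with 0.22 and 0.21.

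**Figure D5:**
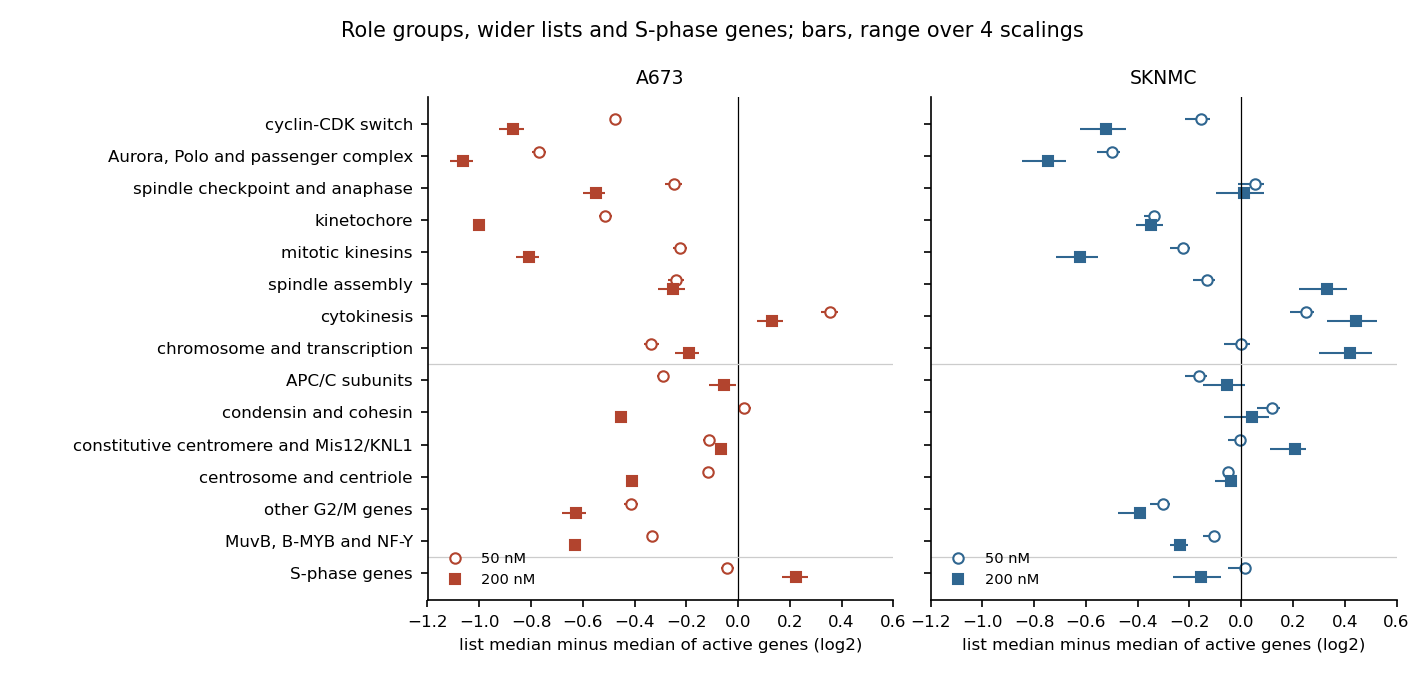
Median log2 fold change of each role group, wider list and the S-phase list minus the median of active genes (horizontal, log2), in A673 (left) and SKNMC (right), open circles at 50 nM and filled squares at 200 nM, with bars from the lowest to the highest value over 4 scalings. The Aurora, Polo and passenger group is lowest at 200 nM in both lines (-1.06 and -0.75), and the cytokinesis group lies above 0 there (0.13 and 0.45).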

How the data were processed

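The data are 6 RNA-seq libraries, 1 per condition, grouped by the sample labels. The authors aligned reads to hg19 with STAR and estimated levels per Ensembl 75 gene, with StringTie by the study's methods and Cufflinks by the submitters' processing notes, and deposited FPKM values for 20311 protein-coding and 7109 lincRNA genes. The table's title calls the values averages, although by the labels every condition is a single library, and whether cultures were pooled is not stated. The authors' 4 columns of log2 fold changes hold their own comparisons and were not used.

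Absolute depth is not known from FPKM. The most frequent ratio of low values put the THZ1 libraries at about 96% and 94% of the DMSO depth in A673 and 97% and 89% in SKNMC, a rough figure resting on at most 5.05% of low genes. Low and high members are thus known with unequal and unstated precision.

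Members were matched by symbol, and 5 genes of the wider lists by an older symbol. The change is log2((FPKM + 1) / (FPKM + 1 of DMSO)), active means above 1 FPKM with DMSO, and decreased means at least 2-fold. No test was made, as each condition has 1 library. Members, role groups, wider lists and alternatives were chosen with earlier results of these data known. Values in every library are given for each member changed at least 2-fold against DMSO and, whatever their change, for CDK1, CCNB1, CCNA2, PLK1, AURKA, AURKB, CDC20, TOP2A, FOXM1 and WEE1, and for PTTG1, chosen after its values were seen, and other members by range. Of the active genes of each wider list, the 3 with the lowest and the 2 with the highest mean change are named. Alternatives were a pseudocount of 0.1, no filter or one at 5 FPKM, a 1.5-fold threshold, and libraries scaled to a common sum, to the 75th percentile of active genes or to the median of active ribosomal protein genes. Promoter windows came from RefSeq (GRCh38.p14), and 30 bases after the start were found in a GENCODE transcript of the gene for 46 of 49 windows. Steps used Python 3.11.15, pandas 2.3.3, numpy 2.4.6, scipy 1.17.1 and matplotlib 3.10.9, and were tested on simulated data.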

Additional observations from a re-analysis of the deposited data

Results flagged for a closer look

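PTTG1, securin, was higher than DMSO at both doses in A673 (log2 fold changes of 0.11 and 0.07) and lower at both in SKNMC (-0.07 and -0.06), which drew attention because the lines moved in opposite directions. The gap between the lines at 50 nM was 0.17. The difference was not tested, rests on 1 library per condition, and each of the 4 values changed sign under at least 1 scaling.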

How the results depend on the processing

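Filtering at 5 FPKM or not at all could not change the member counts and medians, as the lowest members with DMSO were at 11.6 FPKM in A673 and 8.32 FPKM in SKNMC. A common sum or a pseudocount of 0.1 kept each count within 1.5 times and each median within 0.1 of its reported value. The pseudocount moved the share of active genes more. Under it 11 and 25 members in A673 stood against 21.6% and 31.1%, and 7 and 18 in SKNMC against 22.5% and 34.3%. With the 75th percentile scaling, the members decreased at least 2-fold were 16 at 200 nM in A673 (against 17.3% of active genes), and 2 at 50 nM (10.3%) and 6 at 200 nM (13.4%) in SKNMC, the last below active genes where the reported share was above. The member medians were -0.40 and -0.73 in A673 and -0.10 and -0.094 in SKNMC, and those of 200 nM against 50 nM were -0.21 in A673 and 0.10, with the sign turned, in SKNMC. Under it 4.33% of active genes in SKNMC at 200 nM increased at least 2-fold. With the ribosomal protein scaling, 17 members were decreased at 50 nM in A673 (against 21.3%), and 21 at 50 nM (27.98%) and 32 at 200 nM (51.1%) in SKNMC, so that at 50 nM the SKNMC share turned to above that of active genes. The medians were -0.87 and -1.40 in A673 and -0.79 and -1.15 in SKNMC, and for 200 nM against 50 nM -0.45 and -0.37. These shifts follow from the scaling itself, which moves all genes of a library together. At a 1.5-fold threshold, 26 members were decreased at 50 nM in A673 (against 31.8%) and 21 in SKNMC (33.5%), where the share turned likewise. Of 59 decreases of single members, 32 passed 2-fold under every alternative on scaling and pseudocount. The share of active genes passing all of these was not computed, so this count has no background. By dose the 32 were 8 and 16 in A673, and 2 (AURKB and SPC24) and 6 (CDC25A, WEE1, AURKA, CDCA8, CENPA and KIF23) in SKNMC. The 75th percentile scaling alone gave the same counts, against 11.0% and 17.3% of active genes in A673 and 10.3% and 13.4% in SKNMC. Leaving out replicates was not possible. Which scaling best follows RNA content per cell was not tested, and depth sets an unstated limit on the members with low levels.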
